A study of Homo sapiens with 6 samples.

Results

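BxPC-3 cells that received miR-4711-5p were compared with parent BxPC-3 cells, which had no treatment, by mRNA sequencing. BxPC-3 is an established human pancreatic cancer cell line, so all values come from 1 line. The comparison used 4 of the 6 libraries of the series, 2 from each group. The other 2 libraries were from cells given a negative control (NC, labelled NC-1), and their values are printed for part of the same genes. A gene without a printed NC value was not always near parent with NC. Parent cells were not transfected, so an effect of transfection or of any small RNA duplex and an effect of miR-4711-5p cannot be told apart in this comparison. The labels do not say whether replicates came from separate cultures, so p-values measure only the spread between these libraries, which may be technical. Of the 26255 gene symbols in each library, 12040 averaged 1 FPKM or more across the 6 libraries and entered the test, whatever their direction. FPKM (fragments of a gene, scaled by exon length and library size) is a level per length of transcript. Fold changes named log2 are differences of log2(FPKM + 1), which understate the change of genes with low values. Counts and groups of genes changed by at least 1.5-fold or 2-fold use this log2 scale too, where 2-fold is a difference of 1. Folds printed for single genes without log2 are ratios of mean FPKM. Genes that the published study itself names are not described, so that the text covers the largest changes among all other genes. They remain in the counts and shares over genes tested.

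MicroRNAs are short RNAs that guide Argonaute proteins to mRNAs, mostly through pairing of the seed, which is bases 2 to 8 of the microRNA, with the 3′ UTR of the mRNA. Pairing leads to decay of the mRNA or to less translation from it. Among genes with well known roles in epithelial tumour cells are the keratins, which form the intermediate filaments of each epithelial layer. Chemokines of the CXCL family call neutrophils or T cells, and interferon-stimulated genes code for antiviral proteins that interferon signalling induces.

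The mature strand of miR-4711-5p is shown first because its seed decides which 3′ UTR letters were searched. It has 23 bases, it is encoded on the minus strand at chr1:59733269-59733291 (GRCh38.p14, RefSeq), and capitals mark bases 2 to 8, the seed.
miR-4711-5p: uGCAUCAGgccagaagacaugag

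Matches to this seed were read from the longest 3′ UTR of each gene (GENCODE transcripts, GRCh37), as an 8mer (CTGATGCA), a 7mer-m8 (CTGATGC) or a 7mer-A1 (TGATGCA). Of the 20 largest falls described below, 7 had such a match and 4 of these had an 8mer. The 4 genes with an 8mer were MMP28, GTF3A, GINS2 and SEPN1. Their sites and 2 of the 7mer-m8 sites, in ADA and FCF1, are printed with 11 bases on each side, in the direction of the transcript. Capitals mark the letters that pair with the seed and, in an 8mer, the A after them.
MMP28 8mer: tgggagggagaCTGATGCAggcctaccagt
GTF3A 8mer: tattaaaattaCTGATGCAgaacatttgat
GINS2 8mer: tagaaacacttCTGATGCAtgaaaaatgtg
SEPN1 8mer: ctggacgggatCTGATGCAcaggcccccac
ADA 7mer-m8: atagtcagttaCTGATGCtcctgaaccct
FCF1 7mer-m8: ctgctcactttCTGATGCtgcttttttgt

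The MMP28 site was at chr17:34092960-34092967 on the minus strand. The GTF3A site was at chr13:28009815-28009822 on the plus strand and lay 81 bases into a 3′ UTR of 226 bases. The GINS2 site was at chr16:85711721-85711728 on the minus strand. The SEPN1 8mer was at chr1:26142226-26142233 on the plus strand, with 2 more 7mer-m8 sites in the same 3′ UTR. The ADA site was at chr20:43248356-43248362 on the minus strand. FCF1 held 3 7mer-m8 sites in a 3′ UTR of 3690 bases, and the one shown was at chr14:75202580-75202586 on the plus strand. TAGLN2 held 2 7mer-m8 sites.

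Over all genes tested, 2059 of the 11189 with a 3′ UTR (18.4%) held at least 1 such match, and 3.61% held an 8mer. Among genes lower with miR-4711-5p by at least 2-fold, 64 of 146 (43.8%) held a match and 17.8% held an 8mer. Genes that the published study names are counted in these shares. The study picked some of them for a fall in these same data together with a seed match, so the shares of lower genes are not independent of that choice. Among genes lower by less than 2-fold the shares were 23.9% and 5.26%. Genes not past the threshold held a match in 16.7% and an 8mer in 2.94%. Among genes higher by at least 2-fold, 20 of 158 (12.7%) held a match and 1.27% held an 8mer, and none of the 16 named largest rises with a 3′ UTR held one. The median length of the 3′ UTR also differed between these groups, at 1147.5 bases in genes lower by at least 2-fold, 1185.5 in genes higher by at least 2-fold and 1551.5 in genes not past the threshold, so the group with the most matches had the shortest 3′ UTRs. A match describes letters in a reference transcript, and binding was not measured.

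**Figure D1:**
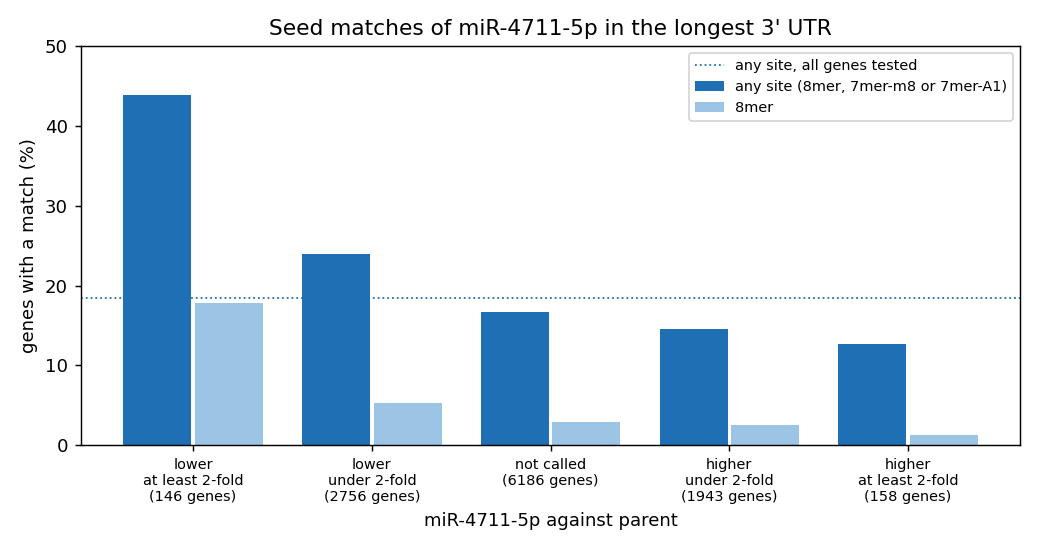
Share of genes (%) whose longest 3′ UTR holds a seed match of miR-4711-5p, by their change against parent. Dark bars count any match, light bars count 8mers, and the dotted line is any match over all genes tested (18.4%). The dark bars step down from 43.8% in genes lower by at least 2-fold to 12.7% in genes higher by at least 2-fold.

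The libraries of a group were close to each other. The median absolute log2 difference between the 2 replicates was 0.0805 in parent, 0.0778 in NC and 0.0638 in miR-4711-5p. Total FPKM was lower with miR-4711-5p (493145.4 and 499659.3) than in parent (550771.6 and 543074.3), while genes above 0 numbered 17146 and 17305 against 16685 and 16597. The number of reads is unknown, since FPKM does not keep it. Epithelial markers were high: KRT7, KRT8, KRT18 and KRT19 were between 890.1 and 1725 FPKM in all parent and miR-4711-5p libraries and EPCAM between 98.6 and 109.7, whereas the ductal gene CFTR was at or near 0. Fibroblast, endothelial, red blood cell, acinar and endocrine markers did not exceed 5.10 FPKM in any of these libraries. Of 12 leukocyte markers, TYROBP and AIF1 were listed at 0 throughout and PTPRC was at most 0.0253 FPKM, but LAPTM5, a lysosomal membrane protein known from blood cells, was at 249 and 252 FPKM in parent and 160.0 and 160.3 with miR-4711-5p. CORO1A, an actin regulator of blood cells, was at 44.1 and 39.4 FPKM and then 16.5 and 17.4. CD68, a lysosomal protein of macrophages, was at 13.997 and 15.3 FPKM and then 13.2 and 11.3, and did not pass the threshold. The leukocyte list, of which LAPTM5 and CORO1A made up most, summed to 308 FPKM in each parent library and 191 in each miR-4711-5p library. In bulk RNA, fewer cells of a type and less RNA per cell cannot be told apart.

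Of the 12040 genes, 2255 (18.7%) rose and 2975 (24.7%) fell with miR-4711-5p relative to parent, 43.4% in all (limma, Benjamini-Hochberg adjusted p under 0.05). By at least 2-fold, 170 (1.41%) were higher and 150 (1.25%) lower, and the middle of the distribution was narrow, with quartiles of the log2 fold change at -0.20 and 0.17. Against NC, 39.6% of genes passed the threshold (0.955% higher and 1.39% lower by at least 2-fold), and NC against parent gave 27.2% (12.1% higher and 15.1% lower, 0.183% higher and 0.125% lower by at least 2-fold). These comparisons share libraries. The balance of rises and falls depended on scale: with each library set to the same total FPKM, chosen after seeing the totals, the median log2 fold change of all genes moved from -0.01 to 0.11 and the counts to 4010 higher and 1776 lower. Without the miR-4711-5p 1 library the count was 3164, with 1249 higher and 1915 lower, and without miR-4711-5p 2 there were 1392 higher.

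**Figure D2:**
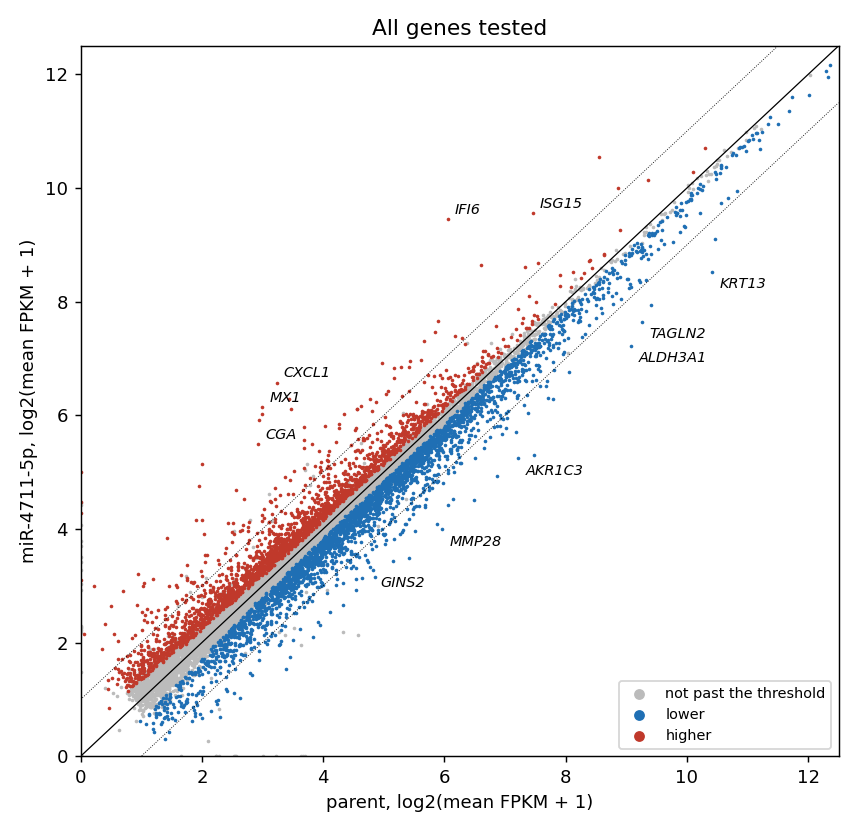
Mean level of each gene tested in parent (x axis) and with miR-4711-5p (y axis), both as log2(mean FPKM + 1), each point 1 gene and each mean over 2 libraries. Red points were higher (2255 genes) and blue points lower (2975 genes) past the threshold, the solid line marks equal levels and the dotted lines a 2-fold difference. Of the labelled genes, IFI6, ISG15, CXCL1, MX1 and CGA stand above the upper line, and KRT13, ALDH3A1, AKR1C3, TAGLN2, MMP28 and GINS2 below the lower one.

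The 20 largest falls held 3 members of the list of keratins and squamous differentiation genes, KRT13, KRT4 and LY6D. KRT13, the keratin of the upper layers of non-cornified epithelium, was at 1405 and 1335 FPKM in parent and 339.7 and 397 with miR-4711-5p. It was 3.72-fold lower (log2 fold change -1.90 ± 0.07 SE, adjusted p = 5.27e-06). Its partner KRT4 was at 43.02 and 40.2 FPKM in parent and 8.79 and 11.5 with miR-4711-5p, 4.09-fold lower. NC libraries were between the other groups for both, at 889.6 and 924 FPKM for KRT13 and 32.3 and 32.99 for KRT4, and the log2 fold change of KRT13 with NC against parent was -0.59 (adjusted p = 0.00254). LY6D, a surface protein of stratified epithelium, fell from 89.4 and 87.5 to 20.5 and 23.2 FPKM (log2 fold change -1.97 ± 0.09 SE). Outside this list, KLK10 and KLK11, secreted serine proteases of the kallikrein family, went from 19.1 and 18.9 FPKM to 4.46 and 6.21 and from 22.7 and 21.99 to 6.55 and 6.73. NC was at 12.9 and 13.6 FPKM for KLK10 and 17.99 and 16.99 for KLK11. SERPINB3, an inhibitor of cysteine proteases known as squamous cell carcinoma antigen, was at 43.4 and 46.2 FPKM in parent, 48.4 and 53.8 with NC and 13.98 and 15.2 with miR-4711-5p. For each of these genes the miR-4711-5p pair lay below the parent pair, which the choice of genes required and which held for 39.3% of all genes tested.

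Counts in this and all later lists stand beside 24.7% lower and 18.7% higher over all genes tested. Shares near these say nothing of a list. Of 30 tested keratins and squamous differentiation genes, 22 were lower (73.3%) and 5 higher (16.7%). The median log2 fold change was -0.64 beside -0.01 over all genes. Against NC the median was -0.49, and NC against parent had a median of -0.14. KRT80, a keratin of differentiating epithelium, moved the other way from most of the list, from 11.8 and 11.99 FPKM in parent to 32.8 and 32.6 with miR-4711-5p (log2 fold change 1.39 ± 0.05 SE, adjusted p = 4.25e-06). Among serpins, secretory leukocyte inhibitors and mucins, 13 of 20 were lower and 3 higher, with a median of -0.42. CEACAM5, a glycoprotein of mucosal surfaces, went from 99.6 and 101 to 38.9 and 45.4 FPKM, and MUC1, a membrane mucin, from 30.2 and 30.5 to 14.6 and 15.6. LCN2, an iron-scavenging protein of inflamed epithelium, rose from 35.4 and 39.7 to 57.1 and 58.3 FPKM (log2 fold change 0.61).

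Enzymes that reduce or oxidise aldehydes and steroids were also among the falls. AKR1C3, an aldo-keto reductase that acts on steroids and prostaglandins, was at 139.9 and 155 FPKM in parent and 34.99 and 38.7 with miR-4711-5p, 4.01-fold lower (log2 fold change -1.97 ± 0.07 SE, adjusted p = 3.95e-06). NC was above parent, at 197 and 205 FPKM (log2 fold change 0.44 against parent, adjusted p = 0.00511). ALDH3A1, an aldehyde dehydrogenase, was at 541 and 540.3 FPKM in parent, 739 and 738 with NC and 139.8 and 158 with miR-4711-5p, so that its fold was larger against NC (log2 fold change -2.31) than against parent (-1.86). AKR1B10, another aldo-keto reductase, went from 138 and 149.8 to 45.2 and 56.9 FPKM, with NC at 185 and 191. Of 27 tested NRF2 antioxidant genes, AKR enzymes and AHR targets, 18 were lower (66.7%) with miR-4711-5p, with a median of -0.43. A further 5 were higher (18.5%, near the share of all genes). With NC against parent, 14 of them were higher and 1 lower, with a median of 0.23. Without either parent library in turn, or either miR-4711-5p library, 3 were higher in place of 5. AKR1C3 has near-identical relatives, as do SERPINB3 and the keratins, and how reads were split between such copies is not stated.

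The remaining large falls have varied roles, and 7 of them are the genes with a seed match. MMP28, a secreted metalloproteinase also called epilysin and encoded at chr17:34083268-34122711 (GRCh37), showed the largest fall of all genes that met the rule: 63.4 and 59.7 FPKM in parent, 66.7 and 62.5 with NC and 14.1 and 15.8 with miR-4711-5p. It was 4.13-fold lower than in parent (log2 fold change -1.98 ± 0.07 SE, adjusted p = 3.95e-06), and NC against parent gave 0.07 (adjusted p = 0.483). GTF3A, the factor that starts transcription of ribosomal 5S RNA, went from 58.4 and 57.2 to 15.8 and 16.4 FPKM. FCF1, which helps to process ribosomal RNA of the small subunit, went from 34.2 and 35.2 to 9.77 and 9.81. NC was near parent in both, at 55.2 FPKM on average for GTF3A (log2 fold change -0.06, adjusted p = 0.337) and 30.9 for FCF1 (log2 fold change -0.16, adjusted p = 0.0407).

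ADA, adenosine deaminase of purine metabolism, was at 13.97 and 14.8 FPKM in parent and 3.57 and 4.34 with miR-4711-5p. TAGLN2, an actin-binding protein of the transgelin family, was among the most abundant of the falling genes, at 623 and 598 FPKM in parent and 190.4 and 209 with miR-4711-5p (3.06-fold lower). GINS2, a subunit of the GINS complex in the replicative helicase, went from 27.9 and 26.96 to 8.28 and 9.01 FPKM, with NC at 19.8 and 20.7. SEPN1, a selenoprotein of the endoplasmic reticulum, went from 25.3 and 22.5 to 7.30 and 8.22, and its log2 fold change of -1.51 was the last that entered the 20, ahead of HMGB1 at -1.501, which did not.

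FOXQ1, a forkhead transcription factor of epithelial cells, was at 27.97 and 27.9 FPKM in parent, 12.8 and 14.2 with NC and 7.68 and 8.02 with miR-4711-5p. It was 2.07-fold lower with NC than in parent (adjusted p = 3.71e-04), and 1.72-fold lower with miR-4711-5p than with NC (adjusted p = 2.00e-04). SPDEF, an ETS factor of secretory epithelium, was at 14.4 and 13.9 FPKM in parent and 3.88 and 4.36 with miR-4711-5p. PLCD3, a phospholipase C, went from 72.6 and 66.8 to 22.2 and 22.1 FPKM, with NC at 49.8 and 51.7. CHCHD3, a scaffold of the mitochondrial inner membrane, went from 16.5 and 16.2 to 5.07 and 4.52 FPKM, while NC was at 15.98 and 16.7 (log2 fold change against parent 0.001, adjusted p = 0.994). ADIRF, known from fat cell differentiation, went from 68.2 and 63.8 to 21.5 and 19.2 FPKM.

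**Figure D3:**
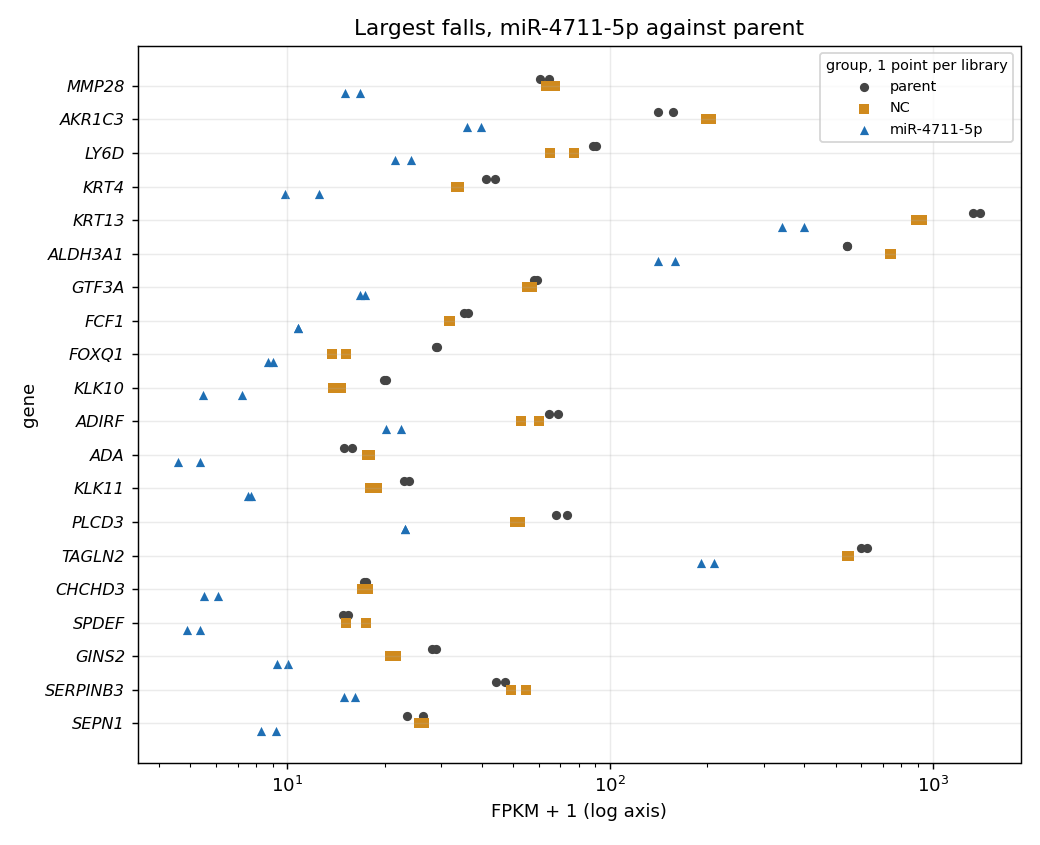
FPKM + 1 on a log axis for the 20 largest falls, 1 point per library (circles parent, squares NC, triangles miR-4711-5p). In every gene both triangles lie to the left of both circles, as the rule required, and the squares of AKR1C3 and ALDH3A1 lie to the right of the circles while those of FOXQ1 lie between circles and triangles.

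The 20 largest rises held 10 members of the list of interferon-induced antiviral effectors. IFI6, a small mitochondrial protein induced by interferon, was at 71.4 and 59.3 FPKM in parent, 99.8 and 94.3 with NC and 753 and 639.6 with miR-4711-5p. It was 10.7-fold higher than in parent (log2 fold change 3.40 ± 0.10 SE, adjusted p = 3.30e-06). MX1, a GTPase that blocks viruses such as influenza, went from 6.91 and 7.09 to 73.5 and 65.4 FPKM (9.93-fold, log2 fold change 3.14 ± 0.07 SE). IFIT1, which binds foreign RNA, went from 10.3 and 9.43 to 81.4 and 72.7 FPKM, with NC at a mean of 10.5. IFI44L was at 6.45 and 6.96 FPKM in parent and 61.4 and 57.3 with miR-4711-5p, and its NC libraries, at 12.7 and 12.9, were above parent (log2 fold change 0.84, adjusted p = 4.37e-04).

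ISG15, a ubiquitin-like protein that is joined to other proteins, went from 181 and 167 to 793 and 708 FPKM, and its NC libraries were at 180.1 and 177. USP18, the protease that removes ISG15 and dampens interferon signalling, went from 2.49 and 3.23 to 28.6 and 23.6 FPKM (9.12-fold). IFITM1, which hinders viral entry at membranes, went from 101 and 90.5 to 408 and 388 FPKM, and its log2 fold change of 2.04 was the last that entered the 20, ahead of IFI27 at 1.999. TRIM22 (2.98 and 2.50 FPKM in parent, 18.8 and 14.9 with miR-4711-5p), SAMD9L (4.52 and 5.29, then 26.4 and 23.3) and XAF1 (11.99 and 11.8, then 56.7 and 52.7) complete this group. Their known roles are restriction of viruses for TRIM22 and SAMD9L and promotion of apoptosis for XAF1. For all of these genes the miR-4711-5p pair lay above the parent pair, as the rule required and as 35.0% of all genes tested did, and it also lay above the NC pair.

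All 38 tested interferon-induced antiviral effectors were up with miR-4711-5p relative to parent (38 of 38, 31 by at least 2-fold), with a median log2 fold change of 1.55 and a range from 0.25 to 3.40. Against NC 36 were higher, with a median of 1.29. NC against parent had 23 higher and 0 lower, with a smaller median of 0.24. Among double-stranded RNA sensors and interferon signalling genes, 14 of 22 were higher and 0 lower, with a median of 0.36. NC against parent gave 9 higher and 0 lower, with a median of 0.16. With miR-4711-5p against NC, 12 were higher and 4 lower, with a median of 0.19. The sensors DDX58 (RIG-I) and IFIH1 (MDA5), which detect RNA duplexes in the cytosol, went from 11.3 and 12.4 to 48.8 and 43.8 FPKM and from 9.31 and 9.34 to 29.9 and 28.3. The log2 fold change of DDX58 was 1.88 ± 0.07 SE (adjusted p = 4.87e-06). The list holds 29 genes, and those not tested were under the filter on low values. Of 21 genes of MHC class I antigen presentation, 10 were higher and 3 lower, with a median of 0.13. With each library set to the same total FPKM, 16 were higher. NC against parent gave 8 higher and 0 lower of these genes, with a median of 0.11. With miR-4711-5p against NC, 6 were higher and 5 lower, with a median of 0.10. HLA-F rose from 4.45 and 5.16 to 13.4 and 14.5 FPKM and the peptide transporter TAP1 from 26.3 and 22.9 to 48.2 and 46.2, whereas the chaperone CANX was lower, at 199 and 212 and then 157 and 156.

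A further 5 of the 20 largest rises were members of the list of cytokines and chemokines. CXCL1, which attracts neutrophils through CXCR2, was at 7.96 and 8.83 FPKM in parent, 12.3 and 14.2 with NC and 89.3 and 99.4 with miR-4711-5p, 11.2-fold higher than in parent (log2 fold change 3.34 ± 0.09 SE, adjusted p = 2.81e-06). CXCL8, or interleukin 8, was at 5.24 and 8.75 FPKM in parent, 15.3 and 16.4 with NC and 60.3 and 67.9 with miR-4711-5p. Its parent libraries were farther apart than those of the other chemokines, and NC against parent gave a log2 fold change of 1.11 (adjusted p = 0.00649). CXCL3 went from 1.64 and 1.74 to 13.1 and 13.7 FPKM and CXCL2 from 2.40 and 3.58 to 17.8 and 15.7, both ligands of the same receptor as CXCL1 and so alike in sequence that reads may be shared among them. CXCL10, which attracts T cells through CXCR3 and is itself an interferon-stimulated gene, was at 9.96 and 10.3 FPKM in parent, 22.3 and 21.9 with NC and 74.00 and 62.2 with miR-4711-5p, with a log2 fold change of 1.05 between parent and NC (adjusted p = 5.68e-04).

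Of 20 tested cytokines and chemokines, 17 rose and 1 fell with miR-4711-5p, 12 of them rising by at least 2-fold, and the median log2 fold change was 1.14. With NC against parent, 14 were higher and 2 lower, with a median of 0.54. The gene that was lower was IL18, a cytokine of epithelial cells, at 56.01 and 55.4 FPKM in parent and 35.7 and 36.7 with miR-4711-5p. Of 20 NF-kappaB subunits and feedback genes, 13 were higher and 1 lower, with a median of 0.31. For the same genes NC against parent gave 11 higher and 1 lower, with a median of 0.23. With miR-4711-5p against NC, 10 were higher and 2 lower, with a median of 0.23. TNFAIP3, the feedback inhibitor A20, rose from 22.02 and 22.2 to 53.8 and 50.7 FPKM and NFKBIZ from 13.1 and 15.6 to 32.9 and 33.3. TRAF1, an adaptor of TNF receptors, rose from 5.28 and 5.57 to 15.6 and 15.8.

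CGA was the largest rise outside these groups that had values above 0 in every library. It codes for the alpha subunit shared by the glycoprotein hormones. CGA was at 6.68 and 6.52 FPKM in parent, 14.6 and 15.6 with NC and 45.9 and 42.3 with miR-4711-5p, 6.68-fold higher than in parent (log2 fold change 2.57 ± 0.06 SE, adjusted p = 2.81e-06). NC was also above parent (log2 fold change 1.08, adjusted p = 2.81e-04), and the 3 groups did not overlap.

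The 4 largest rises by log2 fold change were short RNA genes with values that jumped between libraries. MIR1273E, MIR205 and SNORA52 were listed at 0 in both parent libraries. MIR205 was at 15.2 and 27.4 FPKM with miR-4711-5p and at 22.3 and 0 with NC, so that 1 NC library was at 0 and the other was within the miR-4711-5p range. SNORD15B, a small nucleolar RNA, was at 6.02 and 0 FPKM in parent, 32.2 and 21.2 with NC and 38.9 and 29.9 with miR-4711-5p. Adjusted p against NC was 0.175 for MIR1273E, 0.201 for MIR205, 0.337 for SNORA52 and 0.730 for SNORD15B, so none of them passed the threshold there. Their transcripts, where the annotation listed them, are between 110 and 146 bases long, and FPKM divides by this length. Of 109 tested symbols of such small RNA genes, 12 were higher and 0 lower, shares that are both below the 18.7% and 24.7% of all genes tested.

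**Figure D4:**
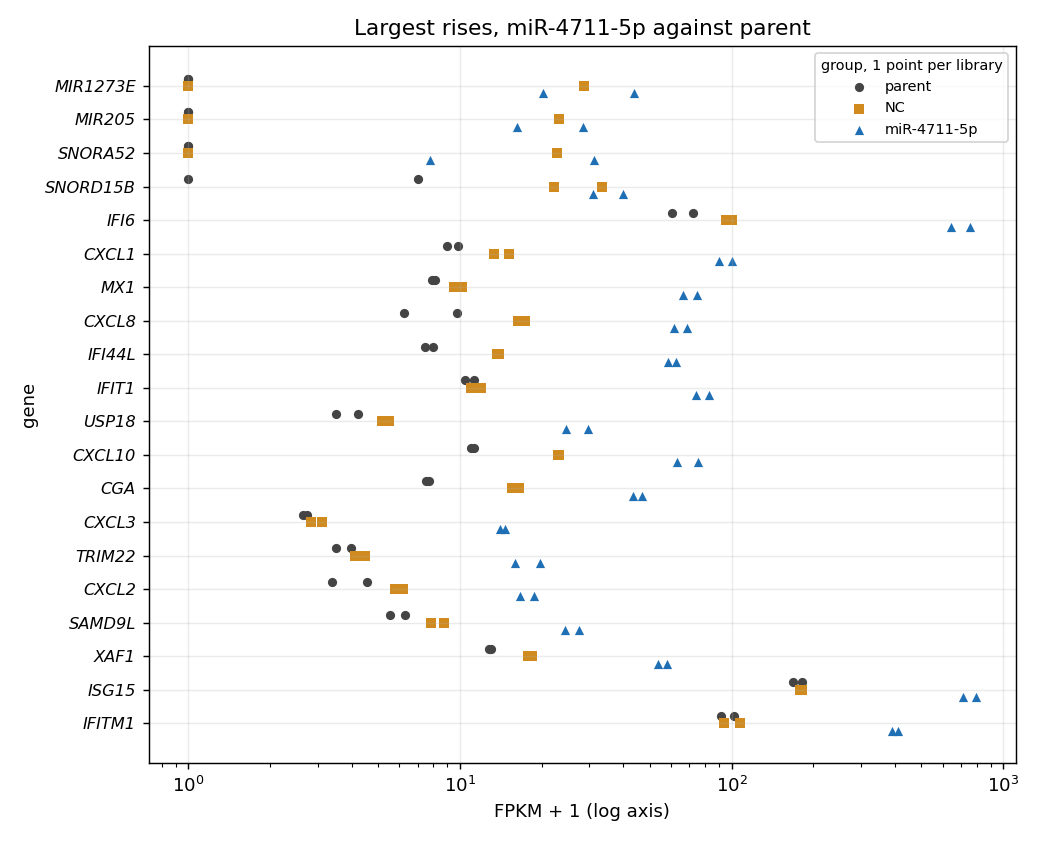
FPKM + 1 on a log axis for the 20 largest rises, 1 point per library (circles parent, squares NC, triangles miR-4711-5p), with a value of 0 drawn at 1. The 4 small RNA genes at the top have a circle or a square at or near 1 beside values far to the right, whereas in the 16 genes below them the replicates of a group lie closer together and both triangles lie to the right of all circles and squares.

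A few abundant genes carried the largest differences in FPKM. KRT13, KRT5, KRT17 and the ribosomal protein genes RPLP1 and RPS2 lost most, and the mean of KRT13 fell by 1001 FPKM. KRT5, the keratin of basal cells, went from 1445 and 1391 to 531 and 562 FPKM, with NC at 982 and 897. KRT17, a keratin of injured and tumour epithelium, went from 1899.5 and 1745 to 1006 and 963, with NC above parent at 2347 and 2074. RPLP1, the highest of these at 5361 and 4930.4 FPKM in parent, was at 3855 and 4087 with miR-4711-5p (log2 fold change -0.37). The largest gains in FPKM were in IFI27, ISG15, IFI6, IFITM3 and F3. IFI27, an interferon-stimulated gene, went from 396 and 352 to 1547 and 1445 FPKM, a mean gain of 1122 FPKM. F3, tissue factor of blood clotting, went from 646 and 667 to 1178 and 1090.1 FPKM, with NC between them at 938 and 943. IFITM3 went from 471 and 456 to 1044 and 1005 FPKM with NC at 458 and 523. IFITM1 and IFITM3 are close relatives, and ribosomal protein genes have many processed pseudogenes, so reads may be shared there too.

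Genes of DNA replication and mitosis were mostly lower than in parent, and so they were with NC. Of 45 DNA replication origin and fork genes, 33 were lower and 1 higher, with a median log2 fold change of -0.33. For the same genes the median was -0.29 with NC against parent, where 35 were lower, and 0.00 with miR-4711-5p against NC. Beside GINS2, another fall in this list was that of LIG1, which joins DNA fragments at the fork, at 29.4 and 28.5 FPKM in parent, 21.7 and 21.8 with NC and 17.8 and 18.9 with miR-4711-5p. Of 42 mitotic kinases, kinesins and kinetochore genes, 33 were lower and 0 higher, with a median of -0.35, beside -0.26 for NC against parent and -0.09 for miR-4711-5p against NC. KIF20A, a kinesin of cytokinesis, went from 32.8 and 34.2 to 15.9 and 17.00 FPKM with NC at 26.6 and 27.7. CDC25B, the phosphatase that activates cyclin-dependent kinases, went from 73.3 and 74.5 to 43.01 and 41.7 with NC at 79.8 and 78.96. ANLN, an actin-binding protein of the cleavage furrow, was lowest with NC (34.3 and 34.2 FPKM, against 70.00 and 72.02 in parent and 43.7 and 43.8 with miR-4711-5p).

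Most respiratory chain, ribosomal protein and cholesterol synthesis genes were lower than in parent, to an extent that depended on scale. Of 32 nuclear-encoded respiratory chain subunits, 26 were lower and 1 higher, with a median of -0.29, and NC against parent had a median of -0.16. UQCRC2 of complex III went from 140.2 and 142 to 82.4 and 86.1 FPKM. Of 39 cytosolic ribosomal protein genes, 26 were lower and 0 higher, with a median of -0.19. NC against parent gave 14 lower and 0 higher, with a median of -0.11. RPS27A went from 1002 and 985 FPKM in parent to 619.6 and 660.3 with miR-4711-5p. Of 29 cholesterol and fatty acid synthesis genes, 18 were lower and 3 higher, with a median of -0.24. FDPS, which makes farnesyl pyrophosphate, went from 165 and 159 to 94.1 and 99.2 FPKM and the desaturase SCD from 375 and 388 to 233 and 239.8. Among 27 glycolysis and hypoxia genes, 13 were lower (48.1%) and 6 higher (22.2%), with a median of -0.03, near the -0.01 of all genes. The glucose transporter SLC2A1 fell from 147 and 145 to 80.1 and 79.9 FPKM, while ADM, adrenomedullin, rose from 11.1 and 12.2 to 25.2 and 24.5. These counts depended on scale and on single libraries. With each library set to the same total FPKM, 17 respiratory chain genes were lower and 1 higher, and 11 ribosomal protein genes were lower and 1 higher. The cholesterol list then had 10 lower and 8 higher, with a median of -0.10, and the glycolysis list 7 lower and 11 higher, with a median of 0.11, beside 0.11 over all genes. Ribosomal protein genes gave 13 lower without parent 1, 16 without parent 2 and 11 without miR-4711-5p 1.

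In the lists that follow, as above, counts stand beside 18.7% higher and 24.7% lower over all genes tested. Of 19 AP-1, MYC and immediate early genes, 9 were higher (47.4%) and 1 lower (5.26%), with a median of 0.15, and 14 were higher with each library set to the same total FPKM. JUN, a subunit of AP-1, rose from 29.3 and 25.3 to 59.4 and 54.04 FPKM and KLF6 from 8.10 and 8.25 to 16.8 and 15.8, while ID1, an inhibitor of basic helix-loop-helix factors, fell from 217 and 200.2 to 73.4 and 83.5. Of 25 EGF receptor family, ligand and ERK feedback genes, 12 were higher (48%, or 6 genes without miR-4711-5p 1) and 7 lower (28%). The ligand TGFA fell from 29.3 and 28.8 to 14.1 and 14.4 FPKM, the ligand EREG rose from 14.4 and 15.2 to 26.7 and 24.2 with NC at 29.3 and 30.2, and the receptor inhibitor ERRFI1 rose from 46.97 and 51.9 to 95.7 and 93.3. Of 24 p53 target genes, 8 were higher (33.3%) and 6 lower (25%, near the share of all genes). GDF15, a stress cytokine, rose 2.84-fold from 35.4 and 34.7 to 96.9 and 102 FPKM, and DDB2, a DNA damage sensor, fell from 43.1 and 40.9 to 25.9 and 28.3. Of 31 caspases, death receptors and BCL2 family genes, 12 were higher (38.7%) and 10 lower (32.3%). The count of higher genes was 6 when any 1 of the parent and miR-4711-5p libraries was left out, and the count of lower genes was 6 without miR-4711-5p 1 and 6 with each library set to the same total FPKM. PMAIP1 (NOXA), a pro-apoptotic BCL2 family member, rose from 18.5 and 17.9 to 56.8 and 50.5 FPKM (log2 fold change 1.504 ± 0.07 SE, adjusted p = 1.01e-05).

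Of 30 cell-cell junction genes, 9 were higher (30.0%) and 13 lower (43.3%). The desmosomal cadherin DSG3 fell from 19.5 and 20.5 to 9.75 and 10.2 FPKM, with NC at 13.9 and 14.2. The tight junction genes CLDN4 and CGN rose from 119.8 and 110.0 to 192 and 189 and from 8.17 and 7.05 to 15.5 and 17.5. Of 26 mesenchymal and matrix genes, 9 were higher (34.6%) and 11 lower (42.3%). ITGA6, an integrin subunit that binds laminin, fell from 189 and 189.9 to 91.96 and 88.8 FPKM with NC at 125 and 114. CYR61, a matricellular protein, rose from 62.7 and 54.5 to 207 and 195 FPKM (3.43-fold), and PLAU, urokinase, rose from 185 and 188 to 412 and 410.2 with NC at 351 and 339. Of 19 metalloproteinases and inhibitors, 4 were higher (21.1%) and 6 lower (31.6%), near the shares of all genes, and equal total FPKM gave 8 higher and 5 lower. MMP9, a gelatinase, was highest with NC (24.9 and 22.8 FPKM) and was at 8.90 and 8.71 in parent and 13.9 and 12.3 with miR-4711-5p, and the inhibitor TIMP3 fell from 33.8 and 34.8 to 18.00 and 18.2.

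Of 19 heat shock proteins and chaperones, 11 were lower (57.9%) and 3 higher (15.8%). Equal total FPKM gave 6 lower and 5 higher, and lower members numbered 6 without parent 1 and 7 without either miR-4711-5p library. HSPB1, a small heat shock protein, was at 666 and 618 FPKM in parent, 353 and 423 with NC and 321 and 345 with miR-4711-5p, and it passed the threshold against parent (adjusted p = 1.98e-04) but not against NC (adjusted p = 0.0876). HSPB8 rose from 16.6 and 15.4 to 30.3 and 30.4 FPKM. The median of the heat shock list was -0.17 with miR-4711-5p against parent. It was -0.19 with NC against parent, where 10 were lower and 1 higher. With miR-4711-5p against NC it was 0.04, with 5 lower and 5 higher. Of 28 integrated stress and unfolded protein response genes, 11 were lower (39.3%) and 5 higher (17.9%), the latter 3 without parent 2 or either miR-4711-5p library and 10 with equal total FPKM. The amino acid transporter SLC7A5 fell from 115 and 108 to 54.6 and 54.7 FPKM, with NC at 79.5 and 82.4. Of 30 proteasome subunits, 6 were lower and 5 higher. Both shares were below those of all genes, and neither count was stable. Without parent 1 or either miR-4711-5p library 1 was lower and 1 higher, without parent 2 there were 3 of each, and equal total FPKM gave 1 lower and 17 higher. PSMA4 fell from 183 and 198 to 106 and 111 FPKM.

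Of 29 lysosomal genes, 9 were lower (31%) and 5 higher (17.2%). Without parent 1 or either miR-4711-5p library 5 were lower, without parent 1, parent 2 or miR-4711-5p 1 there were 3 higher, and equal total FPKM gave 3 lower. The protease CTSD fell from 563 and 517 to 301 and 309.7 FPKM and the autophagy receptor SQSTM1 rose from 242 and 236 to 348 and 355. Of 21 genes of microRNA processing and silencing, 6 were lower (28.6%) and 4 higher (19%), near the shares of all genes. The lower count was 3 without parent 2 or miR-4711-5p 2, 2 without miR-4711-5p 1 and 1 with equal total FPKM, where 7 were higher. TNRC6A, the partner of Argonaute in silencing, was at 12.7 and 13.3 FPKM in parent, 23.8 and 23.4 with NC and 18.2 and 18.6 with miR-4711-5p. Of 23 amino acid and solute carrier transporters, 6 were higher (26.1%), or 3 without parent 1 or miR-4711-5p 1, and 6 were lower (26.1%). Of 14 metallothioneins and S100 proteins, 7 were lower, or 4 without miR-4711-5p 1, and 1 was higher. S100P, a calcium-binding protein, fell from 227 and 218 to 109 and 112 FPKM, and the metallothionein MT2A rose from 1265 and 1265 to 1652 and 1669. With each library set to the same total FPKM, the medians of the junction, metalloproteinase, glycolysis, integrated stress, lysosomal and microRNA lists turned from below 0 to above 0.

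**Figure D5:**
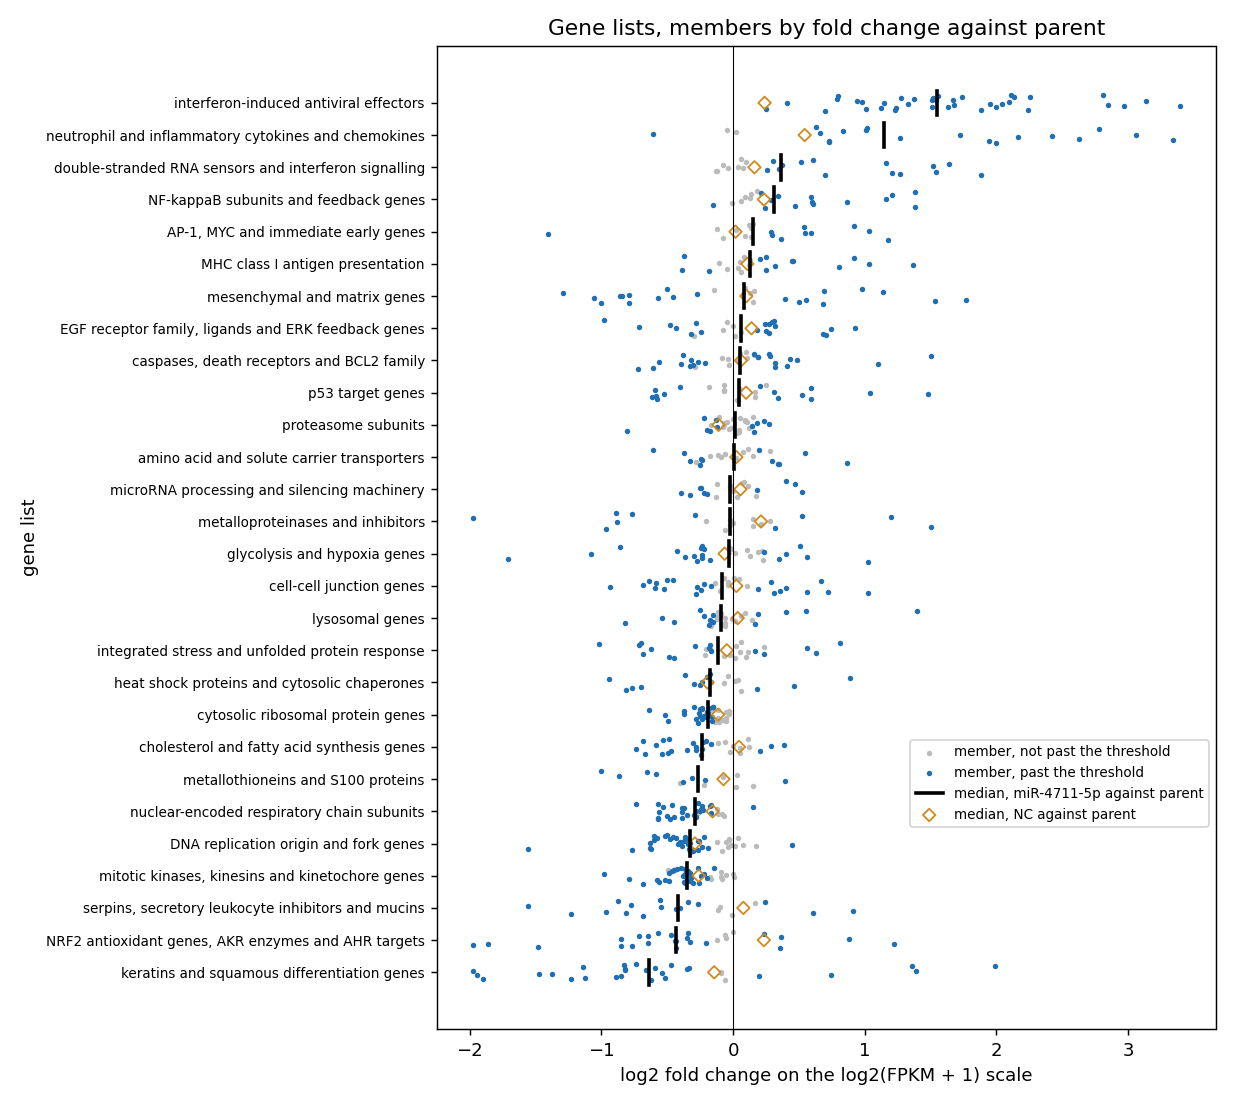
Log2 fold change of miR-4711-5p against parent for the members of the gene lists, 1 point per gene tested (blue past the threshold, grey not), with the list's median as a bar and the median of NC against parent as an open diamond. The antiviral list (median 1.55) and the chemokine list (median 1.14) lie farthest to the right and the keratin list (median -0.64) farthest to the left, and for replication and mitotic genes the diamond lies near the bar.

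Promoters of the rising genes were also read. That the 20 largest rises moved in the same direction was the rule of their choice. Windows from 250 bases before to 50 after the start of each gene (RefSeq, GRCh38.p14) were searched on both strands for an ISRE-like motif (GAAA, any 2 bases, GAAA), an NF-kappaB-like motif (GGG, any 3 bases, TTCC), an AP-1-like motif (TGA, any 1 base, TCA) and an E2F-like motif (TTTCCCGC). Of the 20 largest rises 14 had a window. The ISRE-like motif was in 7 of these (IFIT1, MX1, ISG15, IFI6, IFI44L, IFITM1 and CXCL10), beside 2.78% of 9642 windows of genes tested and 0 of 16 among the largest falls. The NF-kappaB-like motif was in 4 (CXCL1, CXCL2, CXCL3 and CXCL10), beside 7.73% of all windows and 1 of 16 among the falls. The AP-1-like motif was in CXCL8 and SAMD9L, beside 4.66%, and the E2F-like motif in none, beside 2.71%. Among all genes higher by at least 2-fold, 25.4% of 126 windows held the ISRE-like and 18.3% the NF-kappaB-like motif, and among genes lower by at least 2-fold 1.83% and 4.59% of 109 did. The windows are shown for 3 interferon-stimulated genes and 3 chemokines on the strand of the gene, with the motif in capitals.
MX1 ISRE-like: gcagaaatGAAACCGAAActgaattg
ISG15 ISRE-like: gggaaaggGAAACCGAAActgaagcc
IFIT1 ISRE-like: agctttagTTTCACTTTCccctttcg
CXCL1 NF-kappaB-like: ggaactccGGGAATTTCCctggcccg
CXCL10 NF-kappaB-like: ggagcagaGGGAAATTCCgtaacttg
CXCL8 AP-1-like: aagtgtgaTGACTCAggtttgcc

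These windows were at chr21:41420561-41420586 (plus strand) for MX1, chr1:1013382-1013407 (plus strand) for ISG15, chr10:89392499-89392524 (plus strand) for IFIT1, chr4:73869306-73869331 (plus strand) for CXCL1, chr4:76023657-76023682 (minus strand) for CXCL10 and chr4:73740424-73740446 (plus strand) for CXCL8. In IFIT1 the capitals are the motif as read on the other strand. The letters of the motif in MX1 and in ISG15 were the same. A motif is a match of letters, and neither binding nor use of these start sites was measured here.

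The highest of the genes listed at 0 in one group were small RNA genes. There were 23 genes at 0 in both parent libraries and at a mean of 1 FPKM or more with miR-4711-5p. The 5 highest were MIR1273E, MIR205, SNORD60, MIR3936 and SNORA52, of which SNORD60 (42.1 FPKM in miR-4711-5p 1) and MIR3936 (41.1 FPKM in miR-4711-5p 2) were above 0 in 1 of the 6 libraries. In the opposite direction there were 14 genes, and the 5 highest (SNORD12B, MIR658, MIR499A, SNORD89 and MIR6892) were each above 0 in 1 parent library, at 14.1 to 23.99 FPKM.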

How the data were processed

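RNA from 6 BxPC-3 samples (parent, NC and miR-4711-5p, 2 libraries each) was sequenced by the authors from stranded mRNA libraries in single-end mode and mapped to hg19. The deposited values are FPKM per gene symbol, which the authors calculated with Cuffnorm. The submitters' processing notes name TopHat2 2.1.1, Bowtie2 2.3.5.1, SAMtools 1.2, Cuffdiff and Cufflinks 2.2.1, and the methods give other versions for the mapping tools. The annotation, the strand option and how reads shared by related genes were split are not given in the sources used here. Without read counts the depth is unknown, and no count model was used. Rescaling by median of ratios gave factors of 1.006 to 1.007 for all libraries.

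Genes that averaged 1 FPKM or more across the 6 libraries entered the test on log2(FPKM + 1) with limma 3.58.1 (R 4.3.3), with all 6 libraries in 1 fit, a trend, 3 residual and 4.15 prior degrees of freedom, two-sided tests and Benjamini-Hochberg adjustment at 0.05. An exact permutation test of 2 against 2 libraries cannot go below p = 0.333, so none was used. The fit was tested on simulated data. Summaries were made with Python 3.11.15, numpy 2.4.6 and pandas 2.3.3, and plots with matplotlib 3.10.9.

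Named genes were the 20 largest falls and 20 largest rises by log2 fold change against parent among genes past the threshold, where the miR-4711-5p pair lay outside the parent range and a mean of at least 10 FPKM in parent (falls) or miR-4711-5p (rises). To these came the 5 largest falls and rises by difference in mean FPKM, up to 3 members of each of 29 function lists in each direction with at least 10 FPKM in 1 group, the 5 highest genes listed at 0 in 1 group, and members of 5 marker lists. Genes named in the publication were left out, of which 3 would have been among the 20 largest falls and 0 among the rises. HMGB1 is named only as the gene next in order. The members and lists were chosen with earlier results of these data known. Lists are described by counts and medians without a set test, and 1 list and some single genes are not reported here. For 3′ UTR letters, 10597 genes matched GENCODE v44 (GRCh37) by symbol, 592 by an older symbol and 851 did not match, and the longest 3′ UTR was used. Promoter windows were found for 9642 genes. Alternatives were pseudocount, filter, scaling, a replicate block, the libraries in the fit, the trend, a minimum fold change and leaving out each library.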

Additional observations from a re-analysis of the deposited data

How the results depend on the processing

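Under 15 alternatives, the 40 largest falls and rises gave 600 values, of which 583 kept direction and call, 17 lost the call and 0 reversed. The 17 were all of the small RNA genes MIR1273E, MIR205, SNORA52 and SNORD15B. All 40 genes were chosen in these same libraries as large called changes, so the 1.5-fold cut could not remove any of them. Reversals were also unlikely by that choice, so this tally is a description and not a test. Over all 175 genes that the rule named, a required change of at least 1.5-fold left 60 without a call, CANX, RPLP1, RPS2, MT2A, TNRC6A, MMP9 and SQSTM1 of the text among them. Leaving out 1 parent or miR-4711-5p library took the call from 12 to 24 of the 175, each other alternative from at most 9, and none reversed. A change of at least 1.5-fold left 1112 genes for miR-4711-5p against parent (499 higher, 613 lower), 976 against NC and 298 for NC against parent. Leaving out 1 library at a time gave 3164 to 5135 genes against parent (1249 to 2199 higher and 1915 to 2936 lower), 2815 to 4639 against NC and 1355 to 2296 for NC against parent. In each such fit the lone library of a group was assumed to vary like the others. The lowest counts came without miR-4711-5p 1 for both miR-4711-5p comparisons and without parent 1 for NC against parent. Without a filter on low values, NC against parent gave 2165 genes. With each library set to the same total FPKM, chosen after seeing the data, 4010 genes were higher and 1776 lower than in parent.

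A replicate block gave 4983 genes for miR-4711-5p against parent, 4564 against NC and 2864 for NC against parent. Deviations of same-numbered libraries from their group means correlated by 0.003 between parent and miR-4711-5p and 0.061 between parent and NC. The correlation was -0.0089 between NC and miR-4711-5p. No large shared shift was seen, but these values cannot tell whether same-numbered libraries had a common origin. With 2 libraries a group, no outlier among replicates could be tested, and small changes in genes of low FPKM are limited by an unknown read depth.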
